A study of Bos taurus with 8 samples.

Results

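The transcripts of the YAP/TAZ-TEAD module were examined in bovine embryonic stem cells (bESCs) cultured in low oxygen with and without feeder cells. The module was taken as 10 genes chosen by name: the coactivators YAP1 and WWTR1 (the gene of TAZ), the DNA-binding factors TEAD1, TEAD2, TEAD3 and TEAD4, and the target genes CCN1, CCN2, ANKRD1 and AMOTL2. These genes and the gene lists below were chosen with earlier results of these data known. All 10 were found among the 32640 genes listed in the count table, and all 10 were among the 15744 genes that passed the filter on low counts. RNA was sequenced from 4 independent bESC lines, A, C, D and E, recorded as genotype XX and derived from blastocyst-stage embryos. Each line was sequenced in 5% O2 on irradiated mouse embryonic fibroblasts (MEF) at passage 15 to 17 and again in feeder-free conditions on vitronectin (VTN) at passage 20 to 22, for a total of 8 libraries, 4 of each condition. The cells of both conditions grew in NBFR medium, which holds FGF2 and the WNT inhibitor IWR-1. Activin A was added for feeder-free culture according to the paper's methods, although the sample titles carry the same medium name in both conditions. Feeder cells, matrix, passage and possibly Activin A therefore changed together and cannot be told apart in this comparison. Per the methods, bovine-aligned reads of a pure MEF culture were subtracted from the MEF samples, which also differs between the conditions. That step can lower counts of conserved genes on MEF, and its part in the differences below was not tested. Each condition of a line is 1 library, so the spread between lines is the only replicate error.

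YAP and TAZ are transcriptional coactivators that shuttle between cytoplasm and nucleus. The Hippo kinases MST1/2 activate LATS1/2, and LATS1/2 phosphorylate YAP and TAZ, which holds them in the cytoplasm. In the nucleus YAP and TAZ bind TEAD factors, since they have no DNA-binding domain of their own. Their activity is known to depend on cell attachment, cell spreading, the stiffness of the matrix and actin tension, and in the early embryo the pathway takes part in separating trophectoderm from the inner cell mass. The regulation of YAP and TAZ acts mostly on the protein, which RNA counts do not show.

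In feeder-free bESCs the levels of CCN1, TEAD4, TEAD3 and CCN2 were higher than on MEF in all 4 lines. ANKRD1 was higher in lines C, D and E, but line A had 0 and 4 counts, near the limit of detection. YAP1 was lower in all 4 lines, and TEAD2 differed by -0.01 on the log2 scale. With condition alone in edgeR's quasi-likelihood test, 0 of the 10 genes passed a Benjamini-Hochberg adjusted P-value of 0.05 with a fold change of at least 1.5, and 6 of the 10 had an unadjusted P-value under 0.05. In that fit 0.724 percent of all tested genes were called higher and 1.00 percent lower in feeder-free cells, and 3400 of the 15744 had an unadjusted P-value under 0.05. The same lines were sampled in both conditions, and with the line as a paired term (replicate block) 5 of the 10 genes were called higher and 0 lower, where 5.52 percent of all tested genes were called higher and 4.53 percent lower. ANKRD1, which is among the 5, passed the filter on low counts through its feeder-free libraries, and without it 4 of the other 9 were called higher. The median log2 fold change of the 10 genes, ANKRD1 included, was 0.69, or 0.64 in the paired fit. The median over all tested genes was 0.01 in both fits. All 4 lines were higher in feeder-free conditions for 5 of the 10 genes, where 20.2 percent of all tested genes were. ANKRD1 is 1 of these 5 through only 0 against 4 counts in line A. All 4 lines were lower for 2 of the 10, where 20.7 percent of all tested genes were. Levels below are in CPM (counts of a gene scaled by the TMM-adjusted library size). Gene lengths were not available as exon lengths, so levels are compared between conditions and lines for each gene and not between genes.

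**Figure D1:**
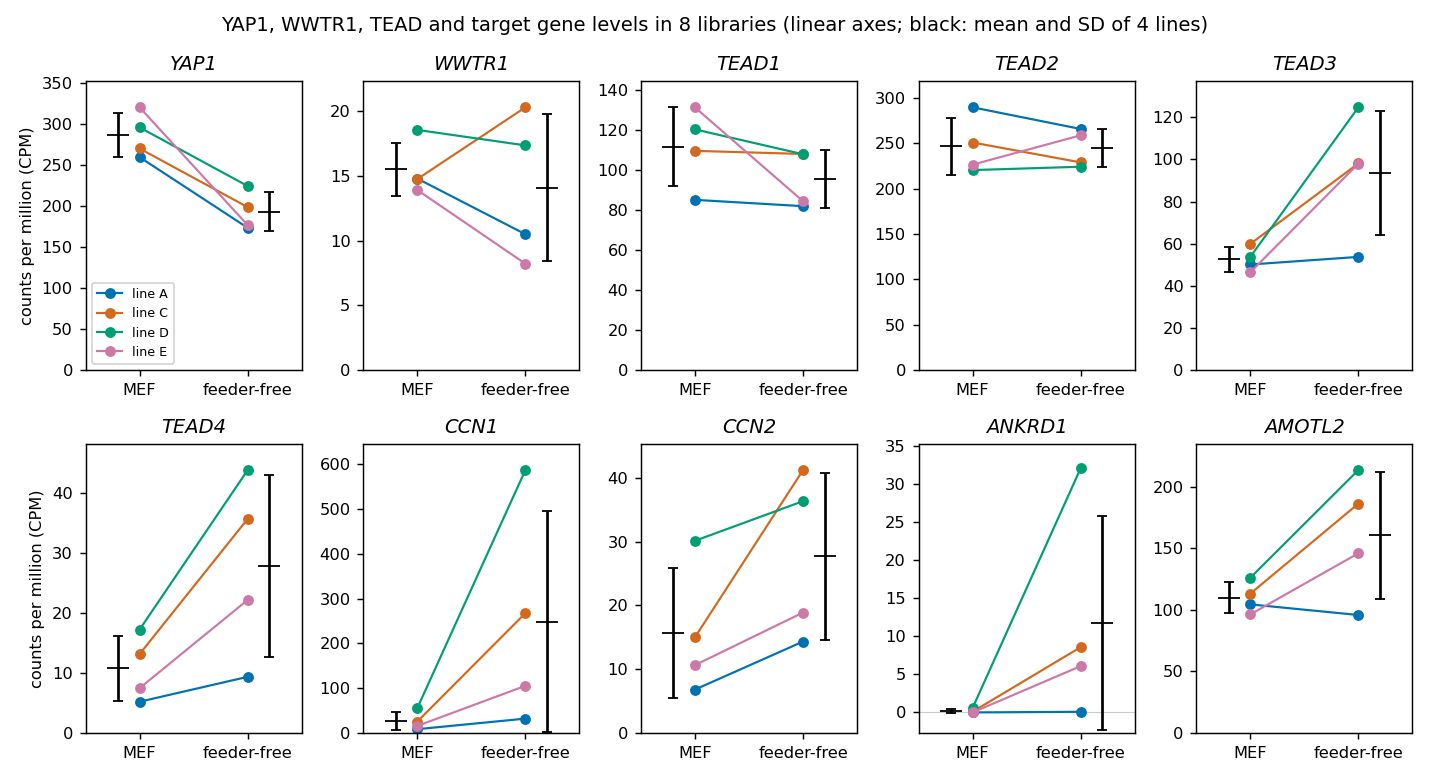
Levels of the 10 genes in the 8 libraries, in CPM on linear axes, with MEF and feeder-free values of each bESC line joined by a coloured line and the mean and SD of the 4 lines in black. YAP1 is the gene whose feeder-free values all lie below the MEF values, and CCN1, TEAD3, TEAD4 and CCN2 go up in each line. ANKRD1 goes up in lines C, D and E, while line A had 0 and 4 counts. Line D is the highest of the feeder-free libraries for TEAD3, TEAD4, CCN1, ANKRD1 and AMOTL2.

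YAP1, at chromosome 15 from 6499364 to 6634778 in ARS-UCD2.0, was lower in feeder-free cells. On MEF it was at 259, 270, 296 and 320 CPM in lines A, C, D and E, and in feeder-free conditions at 173, 198, 224 and 177 CPM. Every feeder-free library lay below every MEF library, and YAP1 was the only 1 of the 10 genes whose conditions did not overlap, where 8.36 percent of all tested genes were separated in the lower direction and 6.21 percent in the higher direction. The mean was 286 ± 27.2 CPM on MEF (SD, n = 4) and 193 ± 23.5 CPM on VTN, a log2 fold change of -0.57 (SE 0.13, adjusted P = 0.0549) with condition alone. Pairing by line gave the same log2 fold change of -0.57 (SE 0.11, adjusted P = 0.0114). That P-value passed, but the reduction of 1.48-fold was just under the threshold of 1.5, so YAP1 was not called. The difference was smallest in line D, at -0.40, and largest in line E, at -0.86.

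WWTR1, at chromosome 1 from 118496458 to 118645507, did not move in a common direction. It was at 14.8, 14.7, 18.5 and 13.9 CPM on MEF and at 10.5, 20.3, 17.3 and 8.22 CPM in feeder-free conditions, in the order A, C, D and E. Line C was higher and the other 3 lines lower in feeder-free conditions. The means were 15.5 ± 2.07 and 14.1 ± 5.67 CPM, and the log2 fold change of -0.14 (SE 0.28, adjusted P = 0.832) was smaller than the spread between lines. Pairing gave -0.22 with a 95% interval from -0.66 to 0.23, so a modest difference in either direction was not detectable with these 4 lines. The ratio of WWTR1 to YAP1 was higher on VTN in 4 of 4 lines, by 0.35 ± 0.38 on the log2 scale (mean ± SD). Most of that mean came from line C, with 0.90, whereas lines A and E moved by 0.09 and 0.10.

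The 4 TEAD genes encode the factors through which YAP and TAZ reach DNA, and they split into a pair with little difference and a pair with higher levels. TEAD1, at chromosome 15 from 39740865 to 40015346, was at 85.0, 109, 120 and 131 CPM on MEF and at 81.9, 108, 108 and 84.3 CPM in feeder-free conditions for lines A, C, D and E. It was slightly lower in each line, but only line E moved by more than 0.2 on the log2 scale, with -0.64. The log2 fold change was -0.22 with an adjusted P of 0.476, and 0.270 in the paired fit, whose 95% interval ran from -0.50 to 0.07. TEAD2, the TEAD gene known for its expression in early embryos, lies on chromosome 18 from 55815643 to 55841617. Its levels were 290, 251, 221 and 227 CPM on MEF and 266, 229, 224 and 259 CPM in feeder-free conditions, with 2 lines higher and 2 lower. Its log2 fold change was -0.01 (adjusted P = 0.966), and the paired 95% interval from -0.24 to 0.22 leaves room for a small change only. The sign of so small a value turned under several alternative settings. The TEAD2 span overlaps CD37, a gene of 20.8 to 47.4 CPM, and reads shared between them cannot be told apart here because the strand setting of the counting is not given in the sources used here.

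TEAD3, at chromosome 23 from 9433297 to 9456466, was at 50.1, 59.9, 53.7 and 46.4 CPM on MEF and at 53.8, 98.1, 125 and 98.0 CPM in feeder-free conditions for lines A, C, D and E. The MEF values lay close together, and the feeder-free libraries of lines C, D and E stood above all of them, while that of line A stayed within their range. The mean went from 52.5 ± 5.73 to 93.6 ± 29.4 CPM. With condition alone the log2 fold change of 0.83 (SE 0.23) had an adjusted P of 0.0792, and in the paired fit TEAD3 was upregulated by 0.78 (SE 0.17, adjusted P = 0.0176). The paired call depended on having all 4 lines or on leaving out line A: it was 1.00 (adjusted P = 0.00410) without line A, and 0.81 (adjusted P = 0.0632), 0.63 (0.0843) and 0.69 (0.0568) without line C, D or E.

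TEAD4, the family member known for its role in trophectoderm formation, lies on chromosome 5 from 106768119 to 106834851. It was at 5.21, 13.2, 17.3 and 7.47 CPM on MEF and at 9.37, 35.8, 43.9 and 22.2 CPM in feeder-free conditions for lines A, C, D and E. The lines kept the same order in both conditions, A lowest and D highest, so the conditions overlapped although every line went up. The means were 10.8 ± 5.47 and 27.8 ± 15.2 CPM. With condition alone the log2 fold change of 1.37 (SE 0.50) had an adjusted P of 0.151. In the paired fit TEAD4 was upregulated by 1.31 (SE 0.15, adjusted P = 0.00151), with a 95% interval from 0.96 to 1.65, and the call held without any one of the 4 lines, with values from 1.24 to 1.45. Relative to TEAD2, TEAD4 went up in 4 of 4 lines by 1.31 ± 0.25 on the log2 scale and TEAD3 by 0.79 ± 0.41, whereas TEAD1 went up in 2 lines and down in 2. These within-line ratios do not depend on gene length, but they were not tested.

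All 4 target genes had fitted changes above 0. ANKRD1 and CCN1 had the largest of the 10 genes, while CCN2 and AMOTL2 changed less than TEAD4. CCN1 (also CYR61), a secreted matricellular protein that binds integrins, lies on chromosome 3 from 58488393 to 58491302. Its levels were 8.31, 25.2, 55.0 and 15.6 CPM on MEF and 31.9, 267, 587 and 105 CPM in feeder-free conditions for lines A, C, D and E. Every line went up, but the feeder-free library of line A stayed below the MEF library of line D. The fold between the highest and the lowest line was 6.62 on MEF and 18.4 in feeder-free conditions. With condition alone the log2 fold change of 3.25 (SE 0.88) had an adjusted P of 0.0784. With pairing CCN1 was upregulated by 2.90 (SE 0.23, adjusted P = 0.000298), a fold change of 7.47, and the call held without any one of the 4 lines, with log2 values from 2.71 to 3.20.

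CCN2 (also CTGF), the close relative of CCN1 and likewise a matricellular protein, lies on chromosome 9 from 69887199 to 69890434. It was at 6.79, 15.0, 30.1 and 10.6 CPM on MEF and at 14.3, 41.2, 36.3 and 18.9 CPM in feeder-free conditions for lines A, C, D and E. Line D, the highest on MEF, moved least, by 0.27 on the log2 scale, and line C moved most, by 1.46. With condition alone the log2 fold change was 0.82 (SE 0.48, adjusted P = 0.362). With pairing CCN2 was upregulated by 0.91 (SE 0.19, adjusted P = 0.0135), and without line C the value was 0.73 with an adjusted P of 0.0613, so the call ended. The ratio of CCN1 to CCN2 went up in 4 of 4 lines by 1.97 ± 0.93 on the log2 scale, from 0.87 in line A to 3.14 in line D.

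ANKRD1 (also CARP), an ankyrin repeat protein of stretched muscle cells and a sensitive YAP/TAZ target, lies on chromosome 26 from 12533108 to 12542479. It was almost without counts on MEF, with 0, 5, 28 and 0 counts in lines A, C, D and E, and had 4, 455, 3282 and 316 counts in feeder-free conditions. As levels these are 0, 0.0908, 0.578 and 0 CPM against 0.0803, 8.57, 32.1 and 6.08 CPM. Line A therefore stayed near the limit of detection in both conditions, with 0 and 4 counts, and no fold is given for it. In the other 3 lines the feeder-free level was 94.4 times that on MEF in line C, 55.5 times in line D and at least 89.5 times in line E, where 3 counts per library stand in for the 0 on MEF. ANKRD1 passed the filter on low counts through the feeder-free libraries. The part of the subtraction of pure MEF reads in its low MEF counts was not tested. The fitted log2 fold change was 6.09 (SE 1.64, adjusted P = 0.0780) with condition alone and 6.38 (SE 0.44, adjusted P = 0.000204) in the paired fit. Both values depend on the prior count because of the libraries at 0.

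AMOTL2, a target that in turn binds YAP and TAZ and restrains them, lies on chromosome 1 from 134947984 to 134965901. It was at 104, 113, 126 and 96.3 CPM on MEF and at 95.8, 186, 214 and 146 CPM in feeder-free conditions for lines A, C, D and E. Lines C, D and E were higher by 0.60 to 0.76 on the log2 scale, and line A was lower by a small amount, at -0.12. The means were 110 ± 12.7 and 160 ± 51.3 CPM. The log2 fold change was 0.55 (SE 0.23, adjusted P = 0.201) with condition alone and 0.49 (SE 0.15, adjusted P = 0.0548) in the paired fit, so AMOTL2 was not called in either. Without line A the paired value was 0.69 with an adjusted P of 0.00709, and AMOTL2 was called higher.

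**Figure D2:**
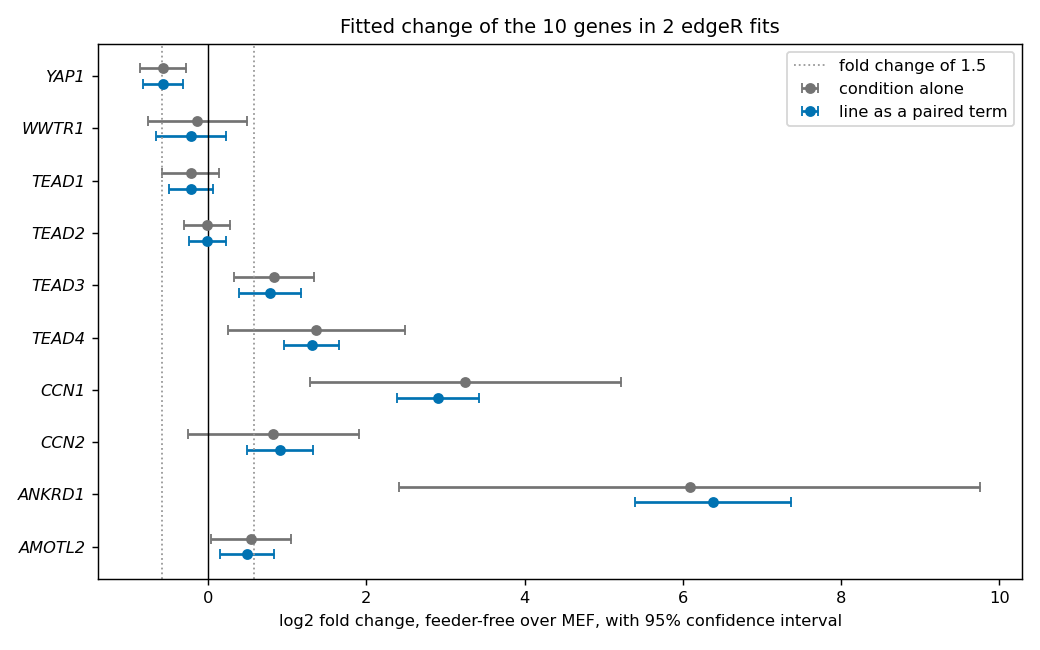
Fitted log2 fold change of the 10 genes, feeder-free over MEF, with 95% confidence intervals, from edgeR with condition alone (grey) and with the line as a paired term (blue). Dotted lines mark a fold change of 1.5. The estimates of the fits are close, from -0.57 for YAP1 to 6.38 for ANKRD1 in the paired fit. The paired intervals are narrower, most clearly for CCN1, ANKRD1, TEAD4 and CCN2.

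The fits differed mainly in their errors. Their estimates for a gene lay close together, but the SE of CCN1 went from 0.88 to 0.23 and that of TEAD4 from 0.50 to 0.15 once line was a term. The order of the lines was the same in both conditions for TEAD4 and CCN1. In feeder-free conditions, 6 of the 10 genes (YAP1, TEAD3, TEAD4, CCN1, ANKRD1 and AMOTL2) ran from low to high in the order A, E, C, D. On MEF, TEAD4, CCN1 and CCN2 had this order, and ANKRD1 had it with A and E tied at 0. Of the gene lists below, the feeder-free sums of STRIPAK components, restraining proteins and fibroblast markers also had the order A, E, C, D. Those of core Hippo genes, further YAP/TAZ targets, and embryonic stem cell, hypoblast and mesoderm markers did not. The share of all tested genes with this order was not computed. Line A was the lowest line for 8 of the 10 genes in feeder-free conditions and for 5 on MEF, and line D was the highest for 6 in each condition. Line A also had the smallest within-line difference for TEAD3, TEAD4, CCN1 and ANKRD1. With condition alone and feeder-free line A left out, 4 of the 10 genes were called higher: TEAD3 (1.02, adjusted P = 0.0205), CCN1 (3.62, 0.0404), ANKRD1 (6.50, 0.0370) and AMOTL2 (0.73, 0.0493). In that setting 259 of all 15974 tested genes were called higher. With any other single library left out, 0 of the 10 genes were called higher. In those settings 0 or 1 of all tested genes were called higher, so the count says little about these 10 genes.

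**Figure D3:**
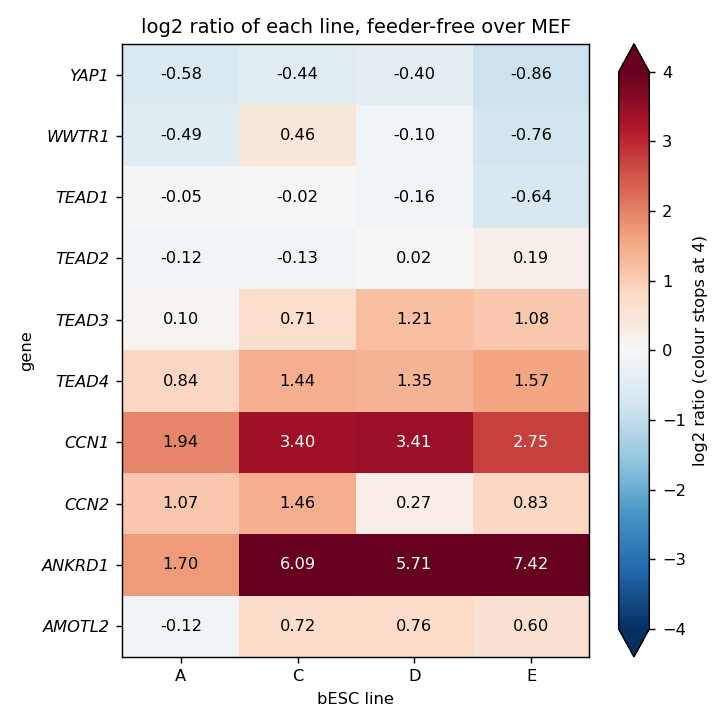
Log2 ratio of feeder-free over MEF for each of the 10 genes (rows) in each bESC line (columns), from log2 CPM with a prior count of 2, coloured from blue (lower) to red (higher) with the colour stopping at 4. YAP1 is negative in every line, TEAD4 lies between 0.84 and 1.57, CCN1 between 1.94 and 3.41, and line A has the smallest values for TEAD3, TEAD4, CCN1 and ANKRD1.

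Other cell types in the libraries were followed by marker genes. The embryonic stem cell markers were well expressed, with summed levels of 4012 to 4509 CPM on MEF and 3496 to 3624 CPM in feeder-free conditions. Of the 7 tested, 6 had log2 fold changes below 0 with condition alone and 1 above. All 4 lines were lower for 5 of the 7, where 20.7 percent of all tested genes were. In the paired fit 3 of the 7 passed an adjusted P-value of 0.05 in the lower direction, but 0 were called in either fit. The 15 fibroblast markers summed to 797, 1003, 1006 and 843 CPM on MEF and to 536, 1329, 1646 and 649 CPM in feeder-free conditions for lines A, C, D and E, so they were highest in feeder-free lines C and D, as CCN1, TEAD4 and AMOTL2 were. COL1A1 was at 115 to 1033 CPM in feeder-free conditions. The markers TWIST2 and FAP were at 0 in all 4 feeder-free libraries, and COL1A2, which was downregulated in the paired fit (-4.35, adjusted P = 0.00166), had 22 counts or fewer in any feeder-free library. Of the 13 tested fibroblast markers, COL3A1 (2.53, adjusted P = 0.00654) and POSTN (2.77, adjusted P = 0.0317) were upregulated and COL1A2 and PRRX1 (-4.15, adjusted P = 0.00759) downregulated in the paired fit, all 4 at no more than 10.5 CPM in any library. The 9 trophectoderm markers summed to 186 to 331 CPM on MEF. In feeder-free lines A, C, D and E they summed to 214, 635, 1005 and 457 CPM. There they had the line order of TEAD4 and CCN1, but on MEF their order was A, C, E, D. Of them CDX2 had 0 counts in all 8 libraries, while the keratins KRT18 and KRT7 and PTGS2 were upregulated and GATA2 (-1.45, adjusted P = 0.0447) downregulated in the paired fit. With condition alone PTGS2 was the 1 trophectoderm marker called, at 2.43 (adjusted P = 0.0373). The 5 hypoblast markers summed to at most 14.2 CPM in any library, and the 6 mesoderm markers to at most 11.9 CPM. The part of these cell types in the differences of the 10 genes was not tested. RNA counts of a whole culture cannot tell more RNA per cell from more cells of a type. Total counts ranged from 44268717 to 54296425 on MEF and from 49671478 to 102351560 in feeder-free conditions, the largest being that of line D.

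Genes upstream in the Hippo pathway were read from the same fits. Of 18 core kinases and adaptors, 0 were called with condition alone, and their median log2 fold change was -0.05, against 0.01 over all genes. In the paired fit 1 of the 18 was called higher and 0 lower. This is near the share over all tested genes, 5.52 percent higher and 4.53 percent lower. The kinases themselves lay near 0 in the paired fit: STK4 (MST1) at -0.08, STK3 (MST2) at 0.12, LATS1 at -0.25 and LATS2 at -0.13, none of them past the threshold. The largest change with condition alone was that of WWC1 (KIBRA), a scaffold that promotes LATS activation, at 0.78 (adjusted P = 0.371), and it was the 1 core gene called in the paired fit, at 0.91 (adjusted P = 0.0105), with 20.1, 42.6, 57.1 and 39.7 CPM in feeder-free lines A, C, D and E against 9.70, 26.0, 43.4 and 13.9 CPM on MEF. The WWC1 span overlaps RARS1. MAP4K5, a kinase of the MAP4K family that can act on LATS1/2, came next with condition alone, at 0.54 (adjusted P = 0.0630). TAOK1, a kinase that activates MST1/2, was at -0.53 (adjusted P = 0.0421), which passed the P-value but not the fold. In the paired fit TAOK1 (-0.53, adjusted P = 0.0166), NF2 (-0.47, 0.0205), MAP4K4 (-0.51, 0.0116) and MAP4K5 (0.54, 0.0261) also passed the P-value with a fold change under 1.5. NF2 encodes Merlin, a membrane scaffold of the pathway, and its feeder-free values of 53.1 to 76.8 CPM all lay below its MEF values of 85.0 to 97.4 CPM. TAOK1 and the genes given here from the paired fit alone were named after their values were seen.

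Of 20 tested proteins that bind or restrain YAP, TAZ or TEAD, 0 were called with condition alone and their median was -0.20. The largest change was that of VGLL3, a cofactor that competes for TEAD, at 1.96 (adjusted P = 0.0565). It was at 2.74, 4.05, 6.79 and 2.88 CPM on MEF and at 11.8, 7.01, 28.8 and 16.5 CPM in feeder-free conditions for lines A, C, D and E, with no overlap, and was upregulated in the paired fit (1.88, adjusted P = 0.00301). PTPN14, a phosphatase that holds YAP in the cytoplasm and is itself a YAP target, was the next at 0.94 (adjusted P = 0.128). In the paired fit 4 of the 20 were called higher and 2 lower, beside 5.52 percent higher and 4.53 percent lower over all tested genes. Beside VGLL3 the higher genes were PTPN14 (0.98, adjusted P = 0.00190), AJUBA (0.62, 0.0269), a LIM protein that inhibits LATS, and RASSF1 (0.64, 0.0335), a scaffold that binds MST kinases. The lower genes were AMOTL1 (-0.63, 0.0123), a relative of AMOTL2 that also binds YAP, and FRMD6 (-0.83, 0.0360), a membrane-associated regulator. Within the angiomotin family, AMOTL2 was thus at 0.49, AMOTL1 at -0.63 and AMOT at -0.42 (adjusted P = 0.0423) in the paired fit. Of 8 components of STRIPAK, a phosphatase complex that acts on MST1/2, 0 were called in either fit, and the largest changes were those of SLMAP at -0.29 (adjusted P = 0.174) and PPP2R1A at -0.25 (adjusted P = 0.357).

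**Figure D4:**
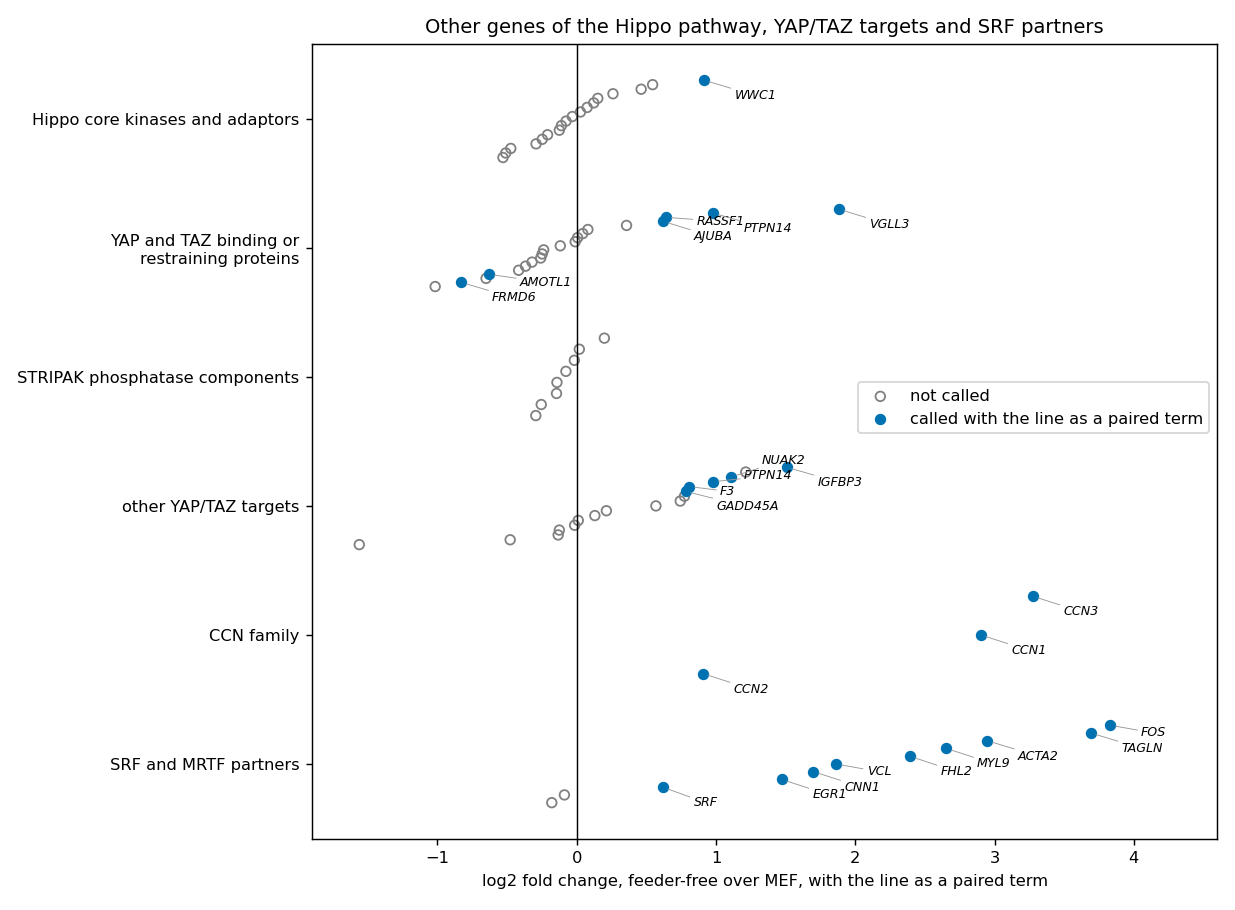
Paired log2 fold change, feeder-free over MEF, of tested genes in 6 lists around YAP and TAZ, with genes called in the paired fit filled and named. Of the 18 core Hippo genes WWC1 was called, the others running from -0.53 to 0.54, and 0 of the 8 STRIPAK genes were. Of 17 further YAP/TAZ targets 5 were called higher, and of 11 SRF partners 9, with 0 lower. Over all tested genes 5.52 percent were called higher. The 3 CCN genes called higher are no separate evidence, since CCN1 and CCN2 are already counted among the target genes. The third, CCN3, passed the filter on low counts through its feeder-free libraries, as did FOS among the SRF partners.

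Beside the 4 target genes above, 17 further published YAP/TAZ targets were tested. With condition alone 0 were called, 13 had values above 0 and 4 below, and the median was 0.75, against 0.01 over all genes. In the paired fit 5 were called higher and 0 lower, where 5.52 percent of all tested genes were called higher. NUAK2, a kinase of the AMPK family, was at 15.9, 26.6, 36.9 and 23.6 CPM on MEF and at 17.4 to 126 CPM in feeder-free conditions (1.11, adjusted P = 0.0156), with the line order A, E, C, D that CCN1 and TEAD4 had. F3, the gene of tissue factor, was at 0.81 (adjusted P = 0.0110), GADD45A, a stress response gene, at 0.78 (adjusted P = 0.0434), and PTPN14, which also stands among the restraining proteins above, at 0.98. IGFBP3, an insulin-like growth factor binding protein, was called (1.51, adjusted P = 0.0304) on lines A and E: it had 0 counts in lines C and D on MEF and in line D in feeder-free conditions and 46 counts in feeder-free line C, but went from 96.1 to 181 CPM in line A and from 151 to 444 CPM in line E. Its line order was therefore close to the opposite of that of CCN1. LATS2, a target as well as a core kinase, was at -0.14 with condition alone (adjusted P = 0.698). The largest values with condition alone were -1.64 for RBMS3 (adjusted P = 0.188), which was at most 1.40 CPM in any library, and 1.38 for NUAK2 (adjusted P = 0.162).

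CCN1 and CCN2 belong to a family of 6 matricellular genes, of which CCN3 was the only other gene that passed the filter. CCN3 had 10, 10, 8 and 2 counts on MEF and 14, 92, 713 and 38 counts in feeder-free conditions for lines A, C, D and E, so the levels were low, and CCN3 passed the filter on low counts through the feeder-free libraries, where it was high. Its log2 fold change was 3.93 (adjusted P = 0.0670) with condition alone and 3.27 (adjusted P = 0.0203) in the paired fit, where CCN3 was upregulated. CCN4, CCN5 and CCN6 had 0 counts in all 4 MEF libraries and at most 0.201 CPM in feeder-free conditions.

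SRF is a transcription factor that acts with the actin-regulated MRTF coactivators, and several cytoskeletal genes are known to answer to both SRF and YAP. A list of 11 SRF and MRTF partners was read, which also holds SRF, MRTFA, MRTFB, FOS and EGR1. It was chosen with earlier results of these data known, so its counts of called genes are a description. Of these 11 genes, 4 were upregulated with condition alone, where 0.724 percent of all tested genes were called higher. This is the one list around YAP and TAZ with such calls. TAGLN (transgelin), an actin-binding protein, was at 34.4, 42.1, 88.6 and 60.2 CPM on MEF and at 78.4, 1187, 2158 and 805 CPM in feeder-free conditions for lines A, C, D and E (4.23, adjusted P = 0.0414). FOS, an immediate early transcription factor, was at 0.127 to 1.80 CPM on MEF and at 6.82 to 10.4 CPM in feeder-free conditions (3.45, adjusted P = 0.0403). FOS, which is among the 4, passed the filter on low counts through its feeder-free libraries, where it was high. FHL2, a LIM domain cofactor, was at 4.01 to 8.14 against 11.2 to 68.9 CPM (2.61, adjusted P = 0.0399), and CNN1 (calponin) was at 50.2 to 75.8 against 72.9 to 329.6 CPM (1.86, adjusted P = 0.0486). These 4 calls held when feeder-free line A was left out and ended when any other library was left out, with adjusted P from 0.0705 to 0.129. With any other library left out, 0 or 1 of all tested genes were called higher. With limma-voom TAGLN (adjusted P = 0.0643), CNN1 (0.0662) and FHL2 (0.0714) were not called either, nor was CNN1 with no scaling beyond library size (0.0522). In the paired fit 9 of the 11 were upregulated, where 5.52 percent of all tested genes were called higher. SRF itself was among them (0.62, adjusted P = 0.0141), together with ACTA2, MYL9, VCL and EGR1, whereas MRTFA (-0.18) and MRTFB (-0.09) were not called. The summed level of the 11 genes was 477 to 1062 CPM on MEF and 797, 3363, 5396 and 2259 CPM in feeder-free lines A, C, D and E, again in the order A, E, C, D.

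For each target gene, the tested genes whose within-line differences were most like its own were found by the root mean square (RMS) difference over the 4 lines, on the log2 scale. Those nearest to CCN1 were LCP1 (RMS 0.31), an actin-bundling protein, THBS1 (0.38), a matricellular thrombospondin, and PDGFB (0.43), a growth factor. None of them was called with condition alone. THBS1 went up by 1.99, 3.68, 3.02 and 3.33 in lines A, C, D and E, where CCN1 went up by 1.94, 3.40, 3.41 and 2.75. For CCN2 the nearest genes were RASGRP2 (0.05), PADI3 (0.16) and SULF1 (0.16), of which SULF1, a heparan sulfatase, was upregulated with condition alone (0.94, adjusted P = 0.0403). ANKRD1 had no close neighbour, the nearest being MMP3 (1.68), GBP1 (1.87) and KCNK12 (1.88). For AMOTL2 they were LOC112446383 (0.08), TGFB1 (0.10) and FHOD3 (0.12), of which TGFB1 encodes a growth factor and FHOD3 an actin-organising formin. The likeness is over 4 lines only and was picked among 15744 genes, so it is a description with no test.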

How the data were processed

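RNA of 8 bESC libraries (4 lines, on MEF and feeder-free, 5% O2) was analysed. The authors deposited raw counts per gene. They had run Trimmomatic on the reads (PE150), STAR against ARS-UCD2.0, Picard against optical duplicates, a samtools filter on mapping quality (minimum 30) and featureCounts (Subread 1.6.2 in the submitters' processing notes). Strand setting is not given in the sources used here. Per the methods, bovine-aligned reads of a pure MEF culture were also subtracted from the MEF samples, which can lower counts of conserved genes there. The methods name RNeasy kits and the sample records Trizol. All records give batch 1.

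Counts were used as deposited, with 0 columns unused; 3 genes had no values. edgeR 4.0.16 in R 4.3.3 (filterByExpr, TMM, glmQLFit, glmQLFTest) was fitted with condition as the one term, and P-values were adjusted over 15744 genes (Benjamini-Hochberg). Calls needed a fold change of 1.5 or more at an adjusted P-value below 0.05. P-values of this fit measure the change against the spread between lines. Those of the paired fit measure it against the spread of the within-line differences. Log2 CPM used a prior count of 2. Chi-square per degree of freedom was at least 34.3 over 12 library pairs within conditions, so each library was counted as its own sample. The line letter names the same cell line in both conditions: deviations from the condition means correlated at 0.421 to 0.664 within lines and at -0.523 to 0.249 between lines, so line was added as a replicate block in a second fit. The fits were tested on simulated counts.

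Members and gene lists were chosen with earlier results of these data known. Named were the 10 genes, genes called in each list (up to 8), the 2 largest changes of lists with fewer than 2 calls, and the 3 genes nearest to each target gene. Genes of the paired fit were added after their values were seen. Spans came from the RefSeq annotation of ARS-UCD2.0, which matched 30268 genes and gives no exon lengths, so levels per length were not computed. Alternatives were other scalings, filters, tests (DESeq2 1.42.0, limma-voom with limma 3.58.1, edgeR's likelihood ratio test), fold thresholds, and libraries or lines left out.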

Additional observations from a re-analysis of the deposited data

How the results depend on the processing

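Over 22 alternatives, 177 of 218 values of the 10 genes kept their direction and their side of the threshold, 33 passed the threshold in the same direction, and 8 turned direction. Those 8 were WWTR1, which ranged from -0.365 to 0.0594 with 1 library left out and was above 0 without feeder-free line E, and TEAD2, whose value of -0.01 became 0.0289 with no scaling beyond library size, 0.00546 with no filter beyond a count above 0, and 0.0268 and 0.0435 in the replicate block without line A or C. With 1 library left out TEAD2 ranged from -0.0652 to 0.0700, above 0 without MEF line A or feeder-free line C or D. The cause was not tested.

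Of the 10 genes, 0 were called higher with condition alone, 5 with the replicate block, 6 in that block without line A, 3 without C, 3 without D (where ANKRD1 was not tested and YAP1 was the 1 gene called lower, at -0.63, adjusted P = 0.0379), 4 without E, 4 with DESeq2, 3 with edgeR's likelihood ratio test, and 0 to 4 without any one library. ANKRD1 was also left out by a filter of at least 10 counts in every library. For the 18, 20 and 8 genes tested in the 3 Hippo lists, calls of 0 higher and 0 lower became 5 and 2 with the replicate block, 5 and 2 in it without line A, 3 and 1 without C, 3 and 1 without D, 4 and 1 without E, 3 and 2 with DESeq2, 1 and 1 with the likelihood ratio test, 1 and 1 with at least 10 counts, and 0 and 1 with no fold threshold. For further YAP/TAZ targets, 0 higher became 5 with the block, 7, 3, 2 and 3 in it without line A, C, D or E, 3 with DESeq2, and 0 to 2 without any one library.

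Over all genes, 114 were called higher and 158 lower with condition alone, 869 and 713 with the replicate block, and 918 and 733, 561 and 496, 376 and 366, and 662 and 497 in it without line A, C, D or E. DESeq2 called 695 and 517, the likelihood ratio test 448 and 389, no filter 73 and 97, and a log2 threshold of 1.5 called 45 and 18. At least 10 counts gave 199 higher, and no scaling 91 lower. Leaving out a library gave 0 to 259 higher and 0 to 231 lower, the highest without feeder-free line A. The 4 SRF partners were lost without any library but that one, 3 of them with limma-voom and CNN1 with no scaling. Levels per length and both length alternatives were not run, since no exon lengths were at hand. With 4 lines the paired 95% intervals of WWTR1, TEAD1 and TEAD2 span 0, so changes inside them were not detectable.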
